A study of Homo sapiens with 12 samples.

Results

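The genes that encode the proteasome were taken from the RNA-seq table by their symbols, PSMA to PSMG followed by a digit. Of the 17508 genes of the table, 48 matched. Of these, 46 encode subunits, activators, an inhibitor or assembly factors of the proteasome. The other two, PSMC3IP and PSME3IP1, match by symbol alone and are kept apart. The 46 genes fall into 8 roles: 8 alpha subunits, 6 constitutive beta subunits, 4 immunoproteasome or thymoproteasome beta subunits, 5 ATPases of the regulatory particle, 11 other subunits of that particle, 4 activators, 1 inhibitor and 7 assembly chaperones. PSMB6 and PSMC6 had no entry under these symbols among the 17508 genes and were not analysed here.

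The RNA came from TYK-nu, a human ovarian cancer cell line. The cells were cultured with 15 μM cisplatin, a platinum drug that cross-links DNA, or with DMSO, the solvent control, for 24 or 72 h. The 4 groups, DMSO 24 h, cisplatin 24 h, DMSO 72 h and cisplatin 72 h, have 3 libraries each of poly(A)-selected RNA, and all come from the 1 line. The comparisons ask what cisplatin did at each time and how each treatment arm differed between the times. Cells collected at 72 h had been with the drug or DMSO longer and had also been in culture longer, and these cannot be told apart. The study's methods say that the cells were grown in triplicate, and no source used here says whether on separate days, so p-values measure the spread between these libraries.

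The proteasome is the large protease that degrades proteins tagged with ubiquitin. Its core particle, 20S, is a barrel of stacked alpha and beta rings, and proteolysis takes place on catalytic beta subunits inside it. The 19S regulatory particle binds ubiquitinated proteins, removes the ubiquitin and, with a ring of ATPases, unfolds the protein into the core. Interferon signalling is known to induce PSMB8, PSMB9 and PSMB10, which replace the constitutive catalytic subunits in the immunoproteasome and favour peptides for antigen presentation, together with the activator PA28 made of PSME1 and PSME2. Transcription of the constitutive genes is known to be raised as a set by the factor NRF1, encoded by NFE2L1, when proteasome activity is low.

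Each library gave between 17341818 and 63913081 exon counts, and introns held 6.26% to 7.17% of its exon and intron counts. Of the 10 markers fixed for serous ovarian epithelium, CDH1 and SOX17 were at 0 exon counts in every library. PAX8 and KRT7 were near 0, and MUC16 and MSLN had no exon entry. KRT18 stood at 173 ± 8.46 exon CPM (exon counts scaled to a common library total) in DMSO 24 h and 134 ± 2.33 in DMSO 72 h. In the same order KRT8 stood at 13.1 ± 1.73 and 32.3 ± 0.527, EPCAM at 0.264 ± 0.105 and 1.38 ± 0.12 and WT1 at 3.19 ± 0.989 and 1.91 ± 0.335 (SD, n = 3 each). The 4 mesenchymal markers, mostly VIM and with CDH2 at 0 in every library, summed to 7144 to 7657 CPM in DMSO 24 h and 6989 to 7318 CPM in cisplatin 24 h, against 8584 to 8705 CPM in DMSO 72 h and 8238 to 8759 CPM in cisplatin 72 h. The endothelial pair PECAM1 and VWF, nearly all PECAM1, summed to 2387 to 2491 CPM in the DMSO 24 h libraries and 2412 to 2474 CPM with cisplatin, against 1350 to 1438 CPM in DMSO 72 h and 1416 to 1524 CPM in cisplatin 72 h. The 3 leukocyte markers, nearly all CD68 and with PTPRC at 0 in every library, summed to 322 to 379 CPM at 24 h and 593 to 658 CPM at 72 h. These levels moved with time as many proteasome genes did, and their part in the results was not tested.

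Promoters are shown for the 3 immunoproteasome genes that rose between 24 and 72 h, PSMB8, PSMB9 and PSMB10, and for PSMD12, which fell most. The windows reach from 250 bases before to 50 bases after a RefSeq start (GRCh38.p14), written in the direction of transcription. Capitals mark matches to 4 motifs searched on both strands, the interferon-stimulated response element core (GAAA, any 2 bases, GAAA), the interferon gamma activated site TTCNNNGAA, the antioxidant response element core TGACNNNGC and the CCAAT box. PSMB8 has 2 RefSeq starts, both on the minus strand, and its upstream window at chr6:32844630-32844929 holds none of these motifs, while its downstream window at chr6:32843998-32844297 holds both interferon motifs. The PSMB9 window, on the plus strand at chr6:32853942-32854241, holds an antioxidant core and a CCAAT box and no interferon motif. That of PSMB10 is on the minus strand at chr16:67936801-67937100 and that of PSMD12, with an antioxidant core, on the minus strand at chr17:67366528-67366827.
PSMB8, upstream start: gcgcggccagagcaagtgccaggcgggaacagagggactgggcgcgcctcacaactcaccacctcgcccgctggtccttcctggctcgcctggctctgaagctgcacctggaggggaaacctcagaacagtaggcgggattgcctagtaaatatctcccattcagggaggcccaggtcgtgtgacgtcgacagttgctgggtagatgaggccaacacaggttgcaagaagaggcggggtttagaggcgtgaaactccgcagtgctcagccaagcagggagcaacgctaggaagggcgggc
PSMB8, downstream start: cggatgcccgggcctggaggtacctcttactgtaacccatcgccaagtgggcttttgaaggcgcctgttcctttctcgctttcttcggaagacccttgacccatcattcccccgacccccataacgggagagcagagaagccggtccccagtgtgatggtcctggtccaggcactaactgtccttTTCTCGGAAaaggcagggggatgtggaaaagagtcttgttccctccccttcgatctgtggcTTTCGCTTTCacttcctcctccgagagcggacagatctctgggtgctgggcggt
PSMB9: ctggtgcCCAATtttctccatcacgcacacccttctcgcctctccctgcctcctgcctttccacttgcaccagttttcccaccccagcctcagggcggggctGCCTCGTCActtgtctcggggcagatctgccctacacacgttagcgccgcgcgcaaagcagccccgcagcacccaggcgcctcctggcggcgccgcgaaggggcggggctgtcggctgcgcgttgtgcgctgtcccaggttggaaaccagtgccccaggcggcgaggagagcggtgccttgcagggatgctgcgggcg
PSMB10: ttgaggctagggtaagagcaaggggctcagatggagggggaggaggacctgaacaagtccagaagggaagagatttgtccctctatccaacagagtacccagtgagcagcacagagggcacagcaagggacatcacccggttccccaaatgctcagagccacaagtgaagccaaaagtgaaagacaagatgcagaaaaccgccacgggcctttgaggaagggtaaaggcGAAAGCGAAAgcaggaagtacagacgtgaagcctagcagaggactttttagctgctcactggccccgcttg
PSMD12: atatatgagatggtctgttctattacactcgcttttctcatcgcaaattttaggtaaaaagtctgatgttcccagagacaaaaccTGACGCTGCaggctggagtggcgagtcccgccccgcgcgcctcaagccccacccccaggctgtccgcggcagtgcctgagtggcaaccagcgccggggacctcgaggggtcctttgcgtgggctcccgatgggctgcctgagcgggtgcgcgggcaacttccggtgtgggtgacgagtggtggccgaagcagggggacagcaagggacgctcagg

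In PSMB8 the interferon-stimulated motif began 4 bases before the downstream start, and in PSMB10 it began 21 bases before it. Windows were found for 41 of the 46 genes. The interferon-stimulated core was in 7 of the 41, or 17.1%, against 4.38% of the 27305 genes with a window. It was in 4 of the 5 genes that rose over time in both arms (PSMB8, PSMB10, PSME1 and PSME2, not PSMB9) and in 1 of 26 that fell in both (PSMA4). A form 1 base shorter, GAANNGAAA, was searched first and was in 2 of those 5 and 4 of those 26, against 9.31% of all genes, so the count rests on the spacing chosen. The antioxidant response element core was in 15 of 41, or 36.6%, against 16.1% of all genes, with 3 of the 5 that rose and 10 of the 26 that fell. The interferon gamma activated site was in 8 of 41 against 9.38%, with 1 of the 5 that rose and 6 of the 26 that fell. The CCAAT box was in 20 of 41 against 39.7%, with 1 of the 5 that rose and 16 of the 26 that fell. The motifs and the spacing were chosen with the results known, and a match is a run of letters, not a binding site.

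**Figure D1:**
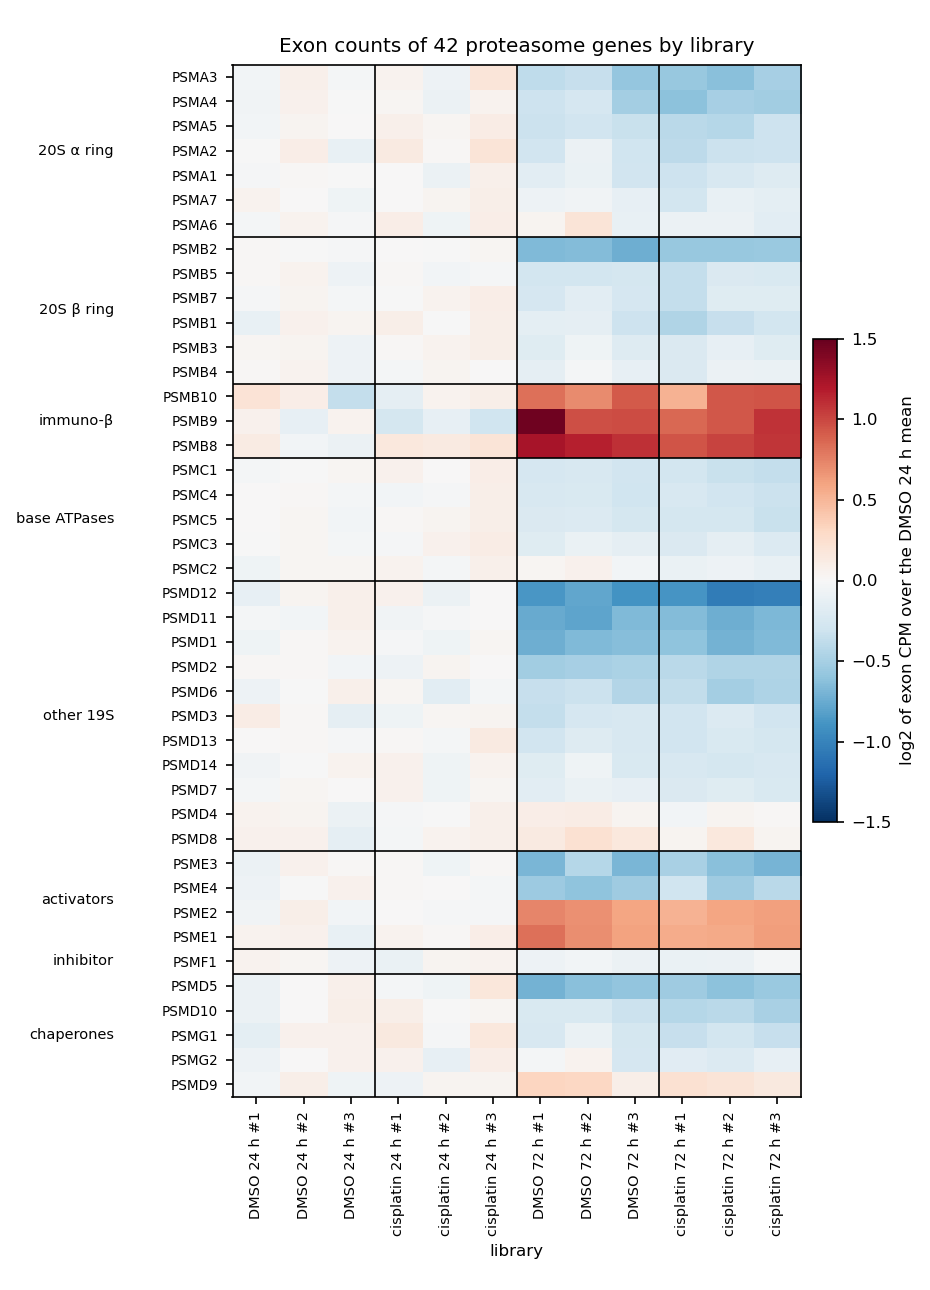
Exon counts of the 42 tested proteasome genes (rows, grouped by role and ordered by change with time in DMSO) in the 12 libraries (columns). Colour is log2 of exon CPM over the mean of the 3 DMSO 24 h libraries, red higher and blue lower. The 6 libraries of 72 h differ from the 6 of 24 h in most rows, blue for most 20S and 19S subunits and red for PSMB8, PSMB9, PSMB10, PSME1 and PSME2.

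Between 24 and 72 h, most proteasome genes had lower exon counts, while the immunoproteasome subunits PSMB8, PSMB9 and PSMB10 and the activator subunits PSME1 and PSME2 rose. In DMSO, 28 of the 42 genes tested were lower at 72 h and 6 were higher (edgeR quasi-likelihood test, Benjamini-Hochberg adjusted p under 0.05 over all 10444 genes tested). Of all genes tested, 32.5% were lower and 32.6% higher. In cisplatin, 32 of the 42 were lower and 5 higher, against 31.5% lower and 32.0% higher of all genes. Over the 42 genes the log2 changes centred on a median of -0.21 in DMSO and -0.28 in cisplatin, where the median of all genes was 0.01 and 0.02. No library is shared by the 2 time comparisons. Lower in both were 28 genes, or 66.7% of the 42, against 27.6% of all genes tested, and higher in both were 5, or 11.9%, against 27.6%. PSMA6, PSMD4, PSMD9 and the inhibitor PSMF1 passed in neither, and PSMA7, PSMB4, PSMC2, PSMD8 and PSMG2 passed in 1 arm, with no difference between the arms called for any of the 42 (the interaction contrast given with the cisplatin comparisons). The small changes were less secure: leaving out 1 library ended the DMSO call of PSMA1 (adjusted p = 0.067), PSMB1 (0.058 and 0.075), PSMB3 (0.055 to 0.082), PSMC3 (0.060 and 0.063), PSMD7 (0.087 and 0.088), PSMD8 (0.074), PSMD14 (0.071) and PSMG1 (0.063 to 0.098), and the cisplatin call of PSMB4 (0.051 to 0.086), PSMC2 (0.068 to 0.10) and PSMG2 (0.053 to 0.16). The libraries were DMSO 72 h replicate 3 for PSMA1 and PSMD14, and DMSO 24 h replicate 3 for PSMD8. For PSMB1 they were DMSO 24 h replicate 2 and DMSO 72 h replicate 3, and for PSMC3 and PSMD7 DMSO 24 h replicate 2 and DMSO 72 h replicate 1. PSMB3 and PSMG1 each lost the call without any of 4 libraries, PSMB4 and PSMC2 without any of 3 cisplatin libraries, and PSMG2 without 5 of the 6 cisplatin libraries or DMSO 24 h replicate 2.

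The proteasome genes together took a smaller share of the library at 72 h. In DMSO 24 h they held 0.913%, 0.931% and 0.902% of exon counts, and in cisplatin 24 h 0.923%, 0.919% and 0.951%. In DMSO 72 h they held 0.794%, 0.809% and 0.782%, and in cisplatin 72 h 0.780%, 0.782% and 0.779%. Every 72 h library was below every 24 h library. In such bulk samples, fewer cells of a type and less RNA per cell cannot be told apart. The immunoproteasome subunits are a small part of this share, 0.00605% ± 0.000542 in DMSO 24 h and 0.0128% ± 0.000981 in DMSO 72 h (SD, n = 3), while the share of the 4 activators together was 0.0329% in both.

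Levels of different genes are compared per length, as exon CPM per kilobase of merged annotated exon (CPM/kb). In DMSO 24 h the median of the 42 genes was 40.1 CPM/kb. The highest was the alpha subunit PSMA7 at 334 ± 13.5 CPM/kb, followed by the ATPase PSMC3 at 231 ± 5.48 CPM/kb and the beta subunit PSMB4 at 193 ± 8.86 CPM/kb (SD, n = 3 each). The lowest was PSMD9, a chaperone of ATPase assembly, at 0.966 ± 0.056 CPM/kb. The 3 immunoproteasome subunits lay between 4.24 CPM/kb for PSMB9 and 11.3 CPM/kb for PSMB10, below the range of the 6 constitutive beta subunits, which ran from 37.0 CPM/kb for PSMB5 to 193 CPM/kb. The subunits of 1 particle, present in equal numbers in it, thus spread over a wide range of measured CPM/kb. The merged length, which counts rarely used exons, is part of each value. Overlapping genes and pseudogenes may also be part of it, which was not tested.

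All 3 tested immunoproteasome subunits rose in both arms. PSMB8 (ENSG00000204264, chr6:32840717-32844679 on GRCh38, minus strand) encodes the immunoproteasome counterpart of PSMB5. It stood at 8.86, 7.88 and 7.65 CPM/kb in DMSO 24 h and at 19.1, 18.2 and 17.4 CPM/kb in DMSO 72 h. With cisplatin it stood at 9.04, 8.92 and 9.32 CPM/kb at 24 h and at 15.6, 16.4 and 17.1 CPM/kb at 72 h. All 6 libraries of 72 h were above all 6 of 24 h. The log2 change with time was 1.16 ± 0.07 in DMSO (SE, adjusted p = 5.5e-13) and 0.85 ± 0.07 in cisplatin (adjusted p = 1.4e-10). Of its exon bases, 17.3% lie in exons of other genes on the opposite strand, where PSMB9 and PSMB8-AS1 overlap it.

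PSMB9 (ENSG00000240065, chr6:32844136-32859851, plus strand), the counterpart of the PSMB6 subunit, lies beside it in the major histocompatibility complex. Its level was 4.44, 3.89 and 4.41 CPM/kb in DMSO 24 h and 11.6, 8.33 and 8.36 CPM/kb in DMSO 72 h, with the first DMSO 72 h library above the other two. With cisplatin it was 3.52, 3.91 and 3.44 CPM/kb at 24 h and 7.69, 8.10 and 9.03 CPM/kb at 72 h. The groups did not overlap between times, and the log2 changes were 1.15 ± 0.11 in DMSO and 1.18 ± 0.11 in cisplatin (adjusted p = 3.4e-09 and 3.2e-09).

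PSMB10 (ENSG00000205220, chr16:67934506-67936864, minus strand) encodes the counterpart of PSMB7. It was at 13.0, 12.1 and 8.81 CPM/kb in DMSO 24 h and at 20.1, 18.5 and 21.5 CPM/kb in DMSO 72 h. With cisplatin the values were 10.3, 11.8 and 11.99 CPM/kb at 24 h and 16.3, 21.5 and 21.8 CPM/kb at 72 h. Again no 72 h library reached down to the 24 h libraries, and the log2 changes were 0.81 ± 0.12 and 0.80 ± 0.12 (adjusted p = 1.9e-06 and 2.1e-06). Of its exon bases, 39.4% lie in exons of another gene on the same strand, so its counts are less certain. The fourth member of the group, PSMB11, the beta subunit of the thymus, had at most 1 exon count in any library.

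The 2 constitutive catalytic subunits measured here, PSMB5 and PSMB7, fell. PSMB5, which has the chymotrypsin-like site, was at 37.6, 38.3 and 35.2 CPM/kb in DMSO 24 h and at 30.5, 30.7 and 30.7 CPM/kb in DMSO 72 h, and at 36.8 ± 0.761 and 30.8 ± 1.63 CPM/kb at 24 and 72 h of cisplatin (SD, n = 3). It fell by 0.27 ± 0.06 (log2, SE) in DMSO and by 0.26 ± 0.06 in cisplatin (adjusted p = 0.00041 and 0.00077). PSMB7, with the trypsin-like site, fell by 0.22 ± 0.05 and by 0.29 ± 0.05 (adjusted p = 0.00096 and 6.6e-05). The level of PSMB8 stayed below that of PSMB5 per length in all 12 libraries. At 72 h this order rests on the merged lengths, 3.48 kb for PSMB8 and 1.55 kb for PSMB5. The exon counts of PSMB8 per count of PSMB5 were 0.493 ± 0.0343 in DMSO 24 h, 0.556 ± 0.0152 in cisplatin 24 h, 1.34 ± 0.0688 in DMSO 72 h and 1.19 ± 0.0323 in cisplatin 72 h (SD, n = 3). Those of PSMB10 per count of PSMB7 were 0.0645 ± 0.012, 0.0626 ± 0.00322, 0.134 ± 0.0146 and 0.133 ± 0.012 in the same order. These are ratios of counts without regard to length, and only their change between groups is to be read.

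**Figure D2:**
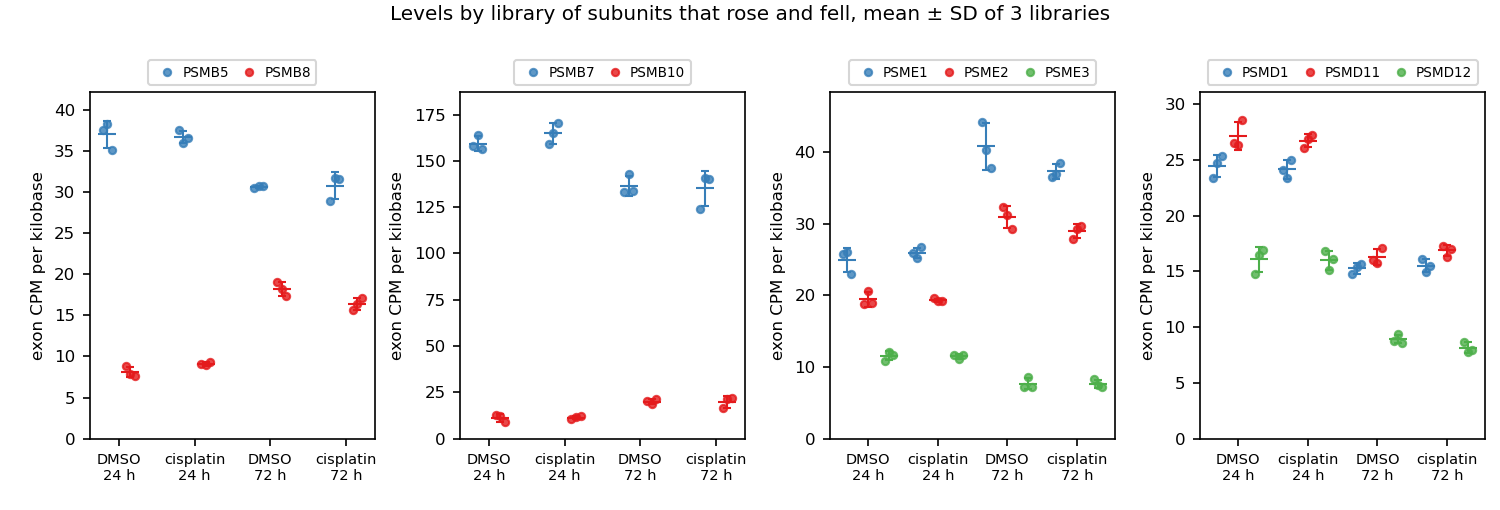
Exon CPM per kilobase (vertical axis, from 0) in the 4 groups for subunits that rose and fell. Points are the 12 libraries, dashes the mean and bars the SD of 3 libraries. PSMB8, PSMB10, PSME1 and PSME2 are higher in all 72 h libraries than in all 24 h libraries, and PSMB5, PSMB7, PSME3, PSMD1, PSMD11 and PSMD12 are lower.

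The activators split by partner. PSME1 and PSME2 encode the alpha and beta subunits of PA28, which opens the core particle without ubiquitin or ATP. PSME1 was at 25.7, 25.99 and 23.0 CPM/kb in DMSO 24 h, and at 44.2, 40.3 and 37.8 CPM/kb in DMSO 72 h. It rose by 0.71 ± 0.07 (log2) in DMSO and by 0.53 ± 0.07 in cisplatin, and PSME2 rose by 0.67 ± 0.06 and by 0.59 ± 0.06 (adjusted p from 5.2e-10 to 2.7e-07 over the 4 tests). The exon counts of PSME2 per count of PSME1 stayed between 1.45 and 1.66 in all 12 libraries. PSME3, the nuclear PA28 gamma, was at 10.9, 12.1 and 11.7 CPM/kb in DMSO 24 h and at 7.20, 8.57 and 7.19 CPM/kb in DMSO 72 h. It fell by 0.60 ± 0.07 and by 0.59 ± 0.07, and PSME4, the large nuclear activator PA200, fell by 0.56 ± 0.06 and by 0.41 ± 0.06 (adjusted p from 1.2e-08 to 1.5e-06 over the 4 tests).

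In both arms PSMD12 and then PSMD11, both of the regulatory particle, fell most of the tested proteasome genes. PSMD12 (ENSG00000197170, chr17:67337916-67366605, minus strand), a lid subunit, was at 14.8, 16.5 and 16.9 CPM/kb in DMSO 24 h and at 8.79, 9.35 and 8.62 CPM/kb in DMSO 72 h. With cisplatin it was at 16.8, 15.1 and 16.1 CPM/kb at 24 h and at 8.69, 7.80 and 7.91 CPM/kb at 72 h. The 72 h libraries lay far below the 24 h libraries in both arms, with log2 changes of -0.85 ± 0.07 in DMSO and -0.97 ± 0.07 in cisplatin (adjusted p = 9.9e-11 and 8.5e-12). PSMD11, the lid subunit beside it, fell from 27.1 ± 1.25 to 16.3 ± 0.733 CPM/kb in DMSO (SD, n = 3), a log2 change of -0.73 ± 0.05, and changed by -0.66 ± 0.05 in cisplatin (adjusted p = 2.1e-11 and 1.2e-10). PSMD1, one of the large scaffold subunits of the base, changed by -0.68 ± 0.05 and -0.64 ± 0.05. The other scaffold subunit, PSMD2, changed by -0.50 ± 0.05 and -0.43 ± 0.04.

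Of the 11 subunits of the regulatory particle outside the ATPase ring, 9 fell in DMSO and 9 in cisplatin, against 32.5% and 31.5% of all genes tested, with PSMD3, PSMD6, PSMD7, PSMD13 and the deubiquitinase PSMD14 between -0.39 and -0.13 on the log2 scale. PSMD8 rose by 0.17 ± 0.06 in DMSO (adjusted p = 0.0084) and was at 0.05 ± 0.06 in cisplatin (adjusted p = 0.45). PSMD4, the ubiquitin receptor, was at 0.09 ± 0.05 and -0.01 ± 0.05 and passed in neither arm. Of the 5 ATPases, PSMC1, PSMC3, PSMC4 and PSMC5 fell in both arms, by 0.14 to 0.26 in DMSO and by 0.24 to 0.38 in cisplatin. PSMC2 was at 0.02 ± 0.05 in DMSO (adjusted p = 0.76) and fell by 0.13 ± 0.05 in cisplatin (adjusted p = 0.025). For PSMC1, 76.1% of the exon bases lie in exons of NRDE2 on the opposite strand.

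Of the 7 alpha subunits tested, PSMA1 to PSMA5 fell in both arms, PSMA7 was at -0.09 ± 0.05 in DMSO (adjusted p = 0.13) and fell by 0.22 ± 0.05 in cisplatin, and PSMA6 passed in neither. PSMA3 was at 47.3, 51.0 and 47.4 CPM/kb in DMSO 24 h and at 37.3, 38.2 and 32.6 CPM/kb in DMSO 72 h. With cisplatin it was at 50.5, 46.1 and 54.9 CPM/kb at 24 h and at 32.7, 31.5 and 34.5 CPM/kb at 72 h, so the times did not overlap. It fell by 0.43 ± 0.07 in DMSO and by 0.62 ± 0.07 in cisplatin (adjusted p = 4.7e-06 and 2.3e-08). Of the 6 constitutive beta subunits, PSMB1, PSMB2, PSMB3, PSMB5 and PSMB7 fell in both arms. PSMB4 was at -0.10 ± 0.05 in DMSO (adjusted p = 0.097) and fell by 0.14 ± 0.05 in cisplatin, and for neither PSMA7 nor PSMB4 did the difference between the arms pass (adjusted p = 0.55 and 0.88).

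PSMB2, a beta subunit without a catalytic site, had the largest fall of the core subunits in DMSO, and PSMA3 in cisplatin. The level of PSMB2 was 96.9, 95.7 and 95.1 CPM/kb in DMSO 24 h and 60.6, 61.0 and 57.8 CPM/kb in DMSO 72 h. With cisplatin it was 96.1, 95.2 and 98.01 CPM/kb at 24 h and 64.5, 64.6 and 65.1 CPM/kb at 72 h. The spread within groups was small against the gap, and the log2 changes were -0.68 ± 0.04 and -0.57 ± 0.04 (adjusted p = 3.5e-12 and 7.7e-11). PSMA8, the testis form of an alpha subunit, had 0 exon counts in all 12 libraries, which allows up to 0.0469 CPM in the deepest and 0.173 CPM in the shallowest library (3 counts of the total, counting error only).

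Of the 5 assembly chaperones tested, 3 fell in DMSO and 4 in cisplatin, against 32.5% and 31.5% of all genes tested. PSMG1 and PSMG2 pair to start the alpha ring, and PSMD5, PSMD9 and PSMD10 hold ATPases before the base is complete. PSMD5 fell by 0.64 ± 0.09 and by 0.59 ± 0.09, PSMD10 by 0.26 ± 0.06 and by 0.47 ± 0.06, and PSMG1 by 0.20 ± 0.07 and by 0.42 ± 0.07 in DMSO and in cisplatin. PSMG2 was at -0.07 ± 0.08 in DMSO and fell by 0.18 ± 0.08 in cisplatin (adjusted p = 0.44 and 0.044). PSMD9 was higher in every 72 h library than in every 24 h library of its arm but did not pass, at 0.23 ± 0.11 and 0.19 ± 0.10 (adjusted p = 0.055 and 0.12). PSMG3 has no exon entry in the table and PSMG4 had 0 to 2 exon counts a library, so neither entered this test. The inhibitor PSMF1 was at 21.3 ± 1.001, 21.4 ± 1.24, 20.4 ± 0.321 and 20.3 ± 0.478 CPM/kb in DMSO 24 h, cisplatin 24 h, DMSO 72 h and cisplatin 72 h, and its exon counts passed in no comparison.

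**Figure D3:**
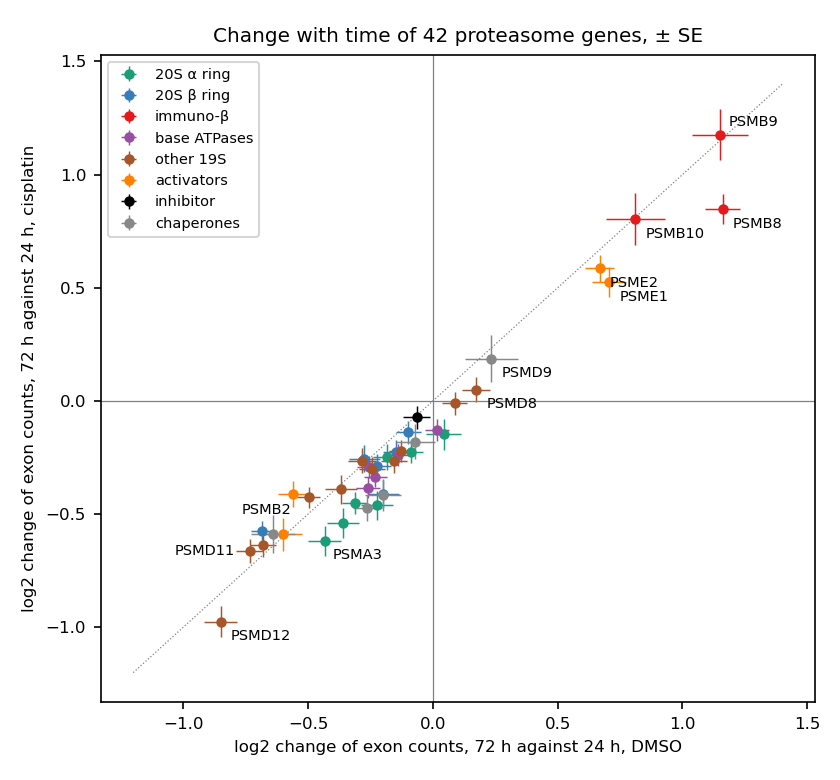
Log2 change of exon counts between 24 and 72 h in DMSO (horizontal axis) and in cisplatin (vertical axis) for 42 proteasome genes, with SE from edgeR. The dotted line marks equal change, and colours mark roles. The 28 genes lower in both arms are at the lower left, down to PSMD12 at -0.85 and -0.97, and PSMB8, PSMB9, PSMB10, PSME1 and PSME2 are at the upper right.

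Proteasome factors with other names and ubiquitin genes were counted in the same fit. Of 9 tested proteasome factors, 5 fell and 0 rose in DMSO, and 5 fell and 1 rose in cisplatin, where of all genes tested 32.5% fell and 32.6% rose in DMSO and 31.5% fell and 32.0% rose in cisplatin. POMP, the maturation factor of the core, fell by 0.67 ± 0.07 and by 0.88 ± 0.07, the deubiquitinase USP14 by 0.72 ± 0.07 and by 0.61 ± 0.07, and the ubiquitin ligase UBE3C by 0.59 ± 0.05 and by 0.43 ± 0.05. AKIRIN2, a factor of nuclear import of proteasomes, was at 0.10 ± 0.08 in DMSO (adjusted p = 0.27) and rose by 0.36 ± 0.08 in cisplatin. Of the 4 genes that control proteasome transcription, NFE2L1 fell by 0.22 ± 0.05 and by 0.18 ± 0.05 and DDI2, the protease that activates its product, by 0.75 ± 0.08 and by 0.56 ± 0.08, while NGLY1, the glycanase that acts with it, rose by 0.36 ± 0.07 and by 0.34 ± 0.06. NFE2L2 rose in DMSO by 0.19 ± 0.08 and was at 0.12 ± 0.07 in cisplatin (adjusted p = 0.16).

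Of 10 genes of ubiquitin supply and delivery, 7 fell in DMSO and 7 in cisplatin, against 32.5% and 31.5% of all genes tested. VCP, the segregase that extracts ubiquitinated proteins, fell by 0.95 ± 0.05 and by 0.85 ± 0.04, and UBA1, the main ubiquitin-activating enzyme, by 0.69 ± 0.05 and by 0.59 ± 0.05. UBB, a polyubiquitin gene, fell by 0.29 ± 0.04 and by 0.34 ± 0.04. RPS27A, which encodes ubiquitin fused to a ribosomal protein, rose by 0.49 ± 0.06 in DMSO and by 0.26 ± 0.06 in cisplatin.

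Cisplatin against DMSO passed for no proteasome gene at either time. At 24 h, edgeR called 0 of 42 genes, as it did of all genes (0.0% of 10444), with 1 of the 42 at an unadjusted p under 0.05 against 2.49% of all genes, and DESeq2 called 0. The log2 changes ran from -0.21 (PSMB9) to 0.16 (PSMB8), with a median of 0.02, and 29 of 42 were positive, against 5193 of all 10444 genes. The genes nearest to passing were PSMB8 at 0.16 ± 0.07 and PSMA2 at 0.12 ± 0.07, both with an adjusted p of 0.9997. PSMB8 was the only one whose cisplatin libraries were all above the DMSO libraries, 1 of 42 against 3.33% of all genes, and none lay all below, against 3.09%.

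At 72 h, edgeR called 0 of 42 genes, against 3 of all genes (0.0287%), with 8 of the 42 at an unadjusted p under 0.05 against 12.6% of all genes, and DESeq2 called 0. The log2 changes ran from -0.19 to 0.15 with a median of -0.07, and 8 of 42 were positive, against 5246 of all 10444 genes with a median of 0.00. All members were measured in the same 6 libraries, and none passed. All 7 alpha subunits and all 5 ATPases had a negative value, from -0.18 for PSMA4 to -0.02 for PSMC4. PSMD10, the chaperone also named gankyrin, was nearest to passing: it was at 35.2, 35.1 and 32.9 CPM/kb in DMSO and at 30.6, 31.3 and 29.5 CPM/kb in cisplatin, a log2 change of -0.17 ± 0.06 (adjusted p = 0.24). PSMA4 was at 12.9, 13.5 and 11.2 CPM/kb in DMSO and at 10.5, 11.3 and 11.2 CPM/kb in cisplatin, at -0.18 ± 0.07 (adjusted p = 0.26).

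The cisplatin libraries were all below the DMSO libraries at 72 h for 9 of 42 genes, against 9.3% of all genes, and all above for PSMB2 and PSMD2, or 2 of 42 against 8.85%. The 9 were PSMA2, PSMB8, PSMC2, PSMC5, PSMD4, PSMD7, PSMD10, PSMD14 and PSMG1. PSMB8 thus had its cisplatin libraries above DMSO at 24 h and below it at 72 h. The difference between its effects was -0.31 ± 0.10 (log2), with an unadjusted p of 0.0035 and an adjusted p of 0.45 by the edgeR interaction contrast. That contrast called 0 of 42 genes and 0.0% of all genes, with 6 of the 42 at an unadjusted p under 0.05 against 9.43% of all genes, and DESeq2 called 0.

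**Figure D4:**
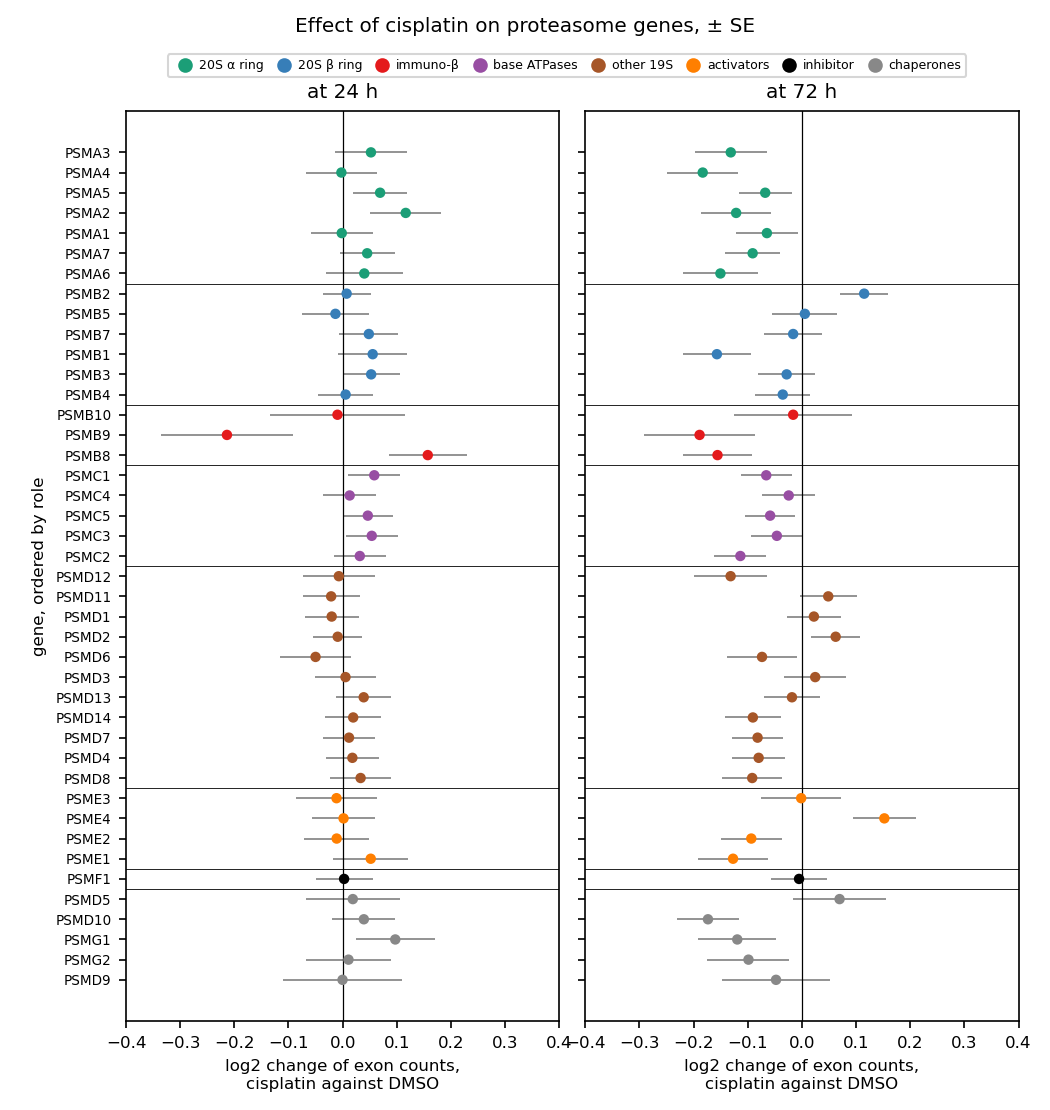
Log2 change of exon counts of cisplatin against DMSO (horizontal axis) at 24 h (left) and 72 h (right) for 42 proteasome genes, with SE from edgeR, grouped and coloured by role. All values lie between -0.21 and 0.16, and at 72 h the alpha subunits and ATPases lie left of 0.

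Intron counts, which come from unspliced or incompletely spliced RNA and from retained introns, were few for most of these genes. Introns held a median of 1.83% of a gene's exon and intron counts in DMSO 24 h over the 42 genes. The range ran from 0.337% for PSMB2 to 23.0% for PSME2, 19.7% for PSMA1 and 18.8% for PSMD9. Of the 46 genes, 44 had enough intron counts for the test. In DMSO, 5 were higher and 8 lower at 72 h, against 17.2% higher and 16.2% lower of all 9618 genes tested. In cisplatin, 7 were higher and 6 lower, against 16.4% and 15.4%.

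The immunoproteasome genes rose in introns too. Intron CPM are intron counts scaled by the exon total of the library, as for exon CPM, while the tests scaled introns by intron totals. PSMB8 was at 0.844, 0.454 and 1.13 intron CPM in DMSO 24 h and at 2.18, 2.20 and 1.48 in DMSO 72 h. The groups did not overlap, and the log2 change was 1.38 ± 0.29 in DMSO and 1.34 ± 0.28 in cisplatin (edgeR adjusted p = 0.00013 and 0.00017). PSMB10 rose by 0.94 ± 0.21 and by 0.64 ± 0.20, the latter not passing without cisplatin 24 h replicate 1 or cisplatin 72 h replicate 2 (adjusted p = 0.12 and 0.16), with 51.7% of its intron bases in exons of another gene on the same strand, and PSME2 by 0.73 ± 0.10 and by 0.54 ± 0.10. PSMB9 changed by 1.79 ± 0.48 in DMSO and 1.39 ± 0.49 in cisplatin, on 3 to 6 intron counts in each 24 h library. In cisplatin its adjusted p of 0.025 became 0.066 with DESeq2 and from 0.051 to 0.16 without cisplatin 24 h replicate 2 or 3 or cisplatin 72 h replicate 1. Of the intron bases of PSMB9, 50.5% lie in exons of other genes. PSME1 rose by 0.88 ± 0.22 in cisplatin.

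In DMSO, intron counts fell for 8 genes and in cisplatin for 6. In DMSO, PSMD5 changed by -1.18 ± 0.34, PSMB5 by -0.95 ± 0.25, PSMB3 by -0.90 ± 0.29 and PSMC2 by -0.85 ± 0.26. Without DMSO 72 h replicate 3, PSMD5, PSMB3 and PSMC2 had adjusted p of 0.085, 0.083 and 0.11, and without DMSO 24 h replicate 1, PSMB5 and PSMB3 had 0.067 and 0.11. In cisplatin, PSMD11 changed by -0.84 ± 0.21, PSMC5, with 35.4% of its intron bases in exons of the opposite-strand gene FTSJ3, by -0.54 ± 0.11 and PSMA5 by -0.51 ± 0.13. PSMA5 fell in DMSO too, by 0.40 ± 0.13, with an adjusted p of 0.076 and 0.10 without replicate 3 of DMSO 24 h or of DMSO 72 h. PSMD14 and PSMG4 fell in DMSO by 0.72 ± 0.18 and 0.60 ± 0.16, PSMD7 in cisplatin by 0.43 ± 0.12, and PSMD13 in both arms by 0.33 ± 0.11 and 0.31 ± 0.11, where leaving out any of 3 libraries in DMSO or any of 4 in cisplatin ended its call (adjusted p up to 0.088). PSMB1 rose in cisplatin by 0.50 ± 0.19, a call lost with DESeq2 (adjusted p = 0.063) and without any of 4 cisplatin libraries (up to 0.18). PSMG3, the third alpha-ring chaperone, changed by -1.07 ± 0.42 on 3 to 23 intron counts a library (adjusted p = 0.046), and its p rose to between 0.069 and 0.20 without cisplatin replicate 2 or 3 of either time and to 0.075 with DESeq2. PSMG4 had at most 2 exon counts but 73 to 326 intron counts in every library.

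PSMB7 moved in opposite directions in exons and introns. It lies at chr9:124353465-124415444 (ENSG00000136930, minus strand), and no annotated exon of another gene overlaps its introns. Its intron level was 8.94, 7.61 and 8.14 intron CPM in DMSO 24 h and 12.8, 13.6 and 13.2 in DMSO 72 h. With cisplatin it was 7.12, 8.83 and 6.13 intron CPM at 24 h and 12.4, 14.5 and 14.2 at 72 h. All 72 h libraries were above all 24 h libraries, by 0.75 ± 0.11 (log2) in DMSO and 0.95 ± 0.11 in cisplatin (adjusted p = 3.9e-07 and 1.3e-09). Its exon counts fell over the same time, as given above. The exon counts per intron count were 31.6, 38.5 and 34.3 in DMSO 24 h and 18.6, 18.8 and 18.1 in DMSO 72 h, and 41.02 ± 8.18 and 17.7 ± 0.247 at 24 and 72 h of cisplatin (SD, n = 3).

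The exon/intron ratio was tested by edgeR with the spread between replicates. In DMSO, 2 of 42 genes had a higher ratio and 3 a lower one at 72 h, against 8.09% and 3.37% of the 9380 genes tested. In cisplatin 0 were higher and 2 lower, against 8.36% and 3.56%. PSMB7 fell in both arms, by 0.91 ± 0.13 and by 1.16 ± 0.13 on the log2 scale (adjusted p = 2.5e-05 and 6.6e-07). In DMSO, PSMD2 changed by -0.55 ± 0.13 (adjusted p = 0.0049) and PSMA4 by -0.47 ± 0.15 (adjusted p = 0.042). The call of PSMA4 was lost without any one of the 6 DMSO libraries. It was also lost without cisplatin 72 h replicate 2 (0.055) and with a filter of at least 1 exon and 1 intron count in 1 library (0.055). PSMC2 changed by 0.94 ± 0.21 (adjusted p = 0.0043) and PSMD14 by 0.63 ± 0.19 (adjusted p = 0.029). The adjusted p of PSMC2 was 0.052 without DMSO 72 h replicate 3, and that of PSMD14 rose to between 0.090 and 0.17 without DMSO 24 h replicate 2 or 3 or DMSO 72 h replicate 2. In cisplatin, PSMB1 changed by -0.83 ± 0.19 (adjusted p = 0.0040). The counts themselves moved by over 1.5 times with 1 library, to 3 in DMSO without DMSO 72 h replicate 3 and to 5 in cisplatin without cisplatin 24 h replicate 2.

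PSMC2 had the lowest intron percentage of the 5 ATPases, 0.579% ± 0.0743 in DMSO 24 h (SD, n = 3), and the opposite sign of PSMB7 in the ratio. Its intron level was 1.65, 1.99 and 2.26 intron CPM in DMSO 24 h and 1.15, 1.29 and 0.741 in DMSO 72 h, with no overlap, while its exon counts did not pass. These levels rest on 29 to 57 intron counts in each DMSO library. Of the intron bases of PSMC2, 18.1% lie in exons of other genes on either strand and 8.94% in those on the same strand. The exon counts per intron count were 196, 173 and 151 in DMSO 24 h and 300, 273 and 443 in DMSO 72 h. In cisplatin they were 166, 142 and 148 at 24 h and 184, 246 and 183 at 72 h, which did not overlap either but did not pass in edgeR.

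**Figure D5:**
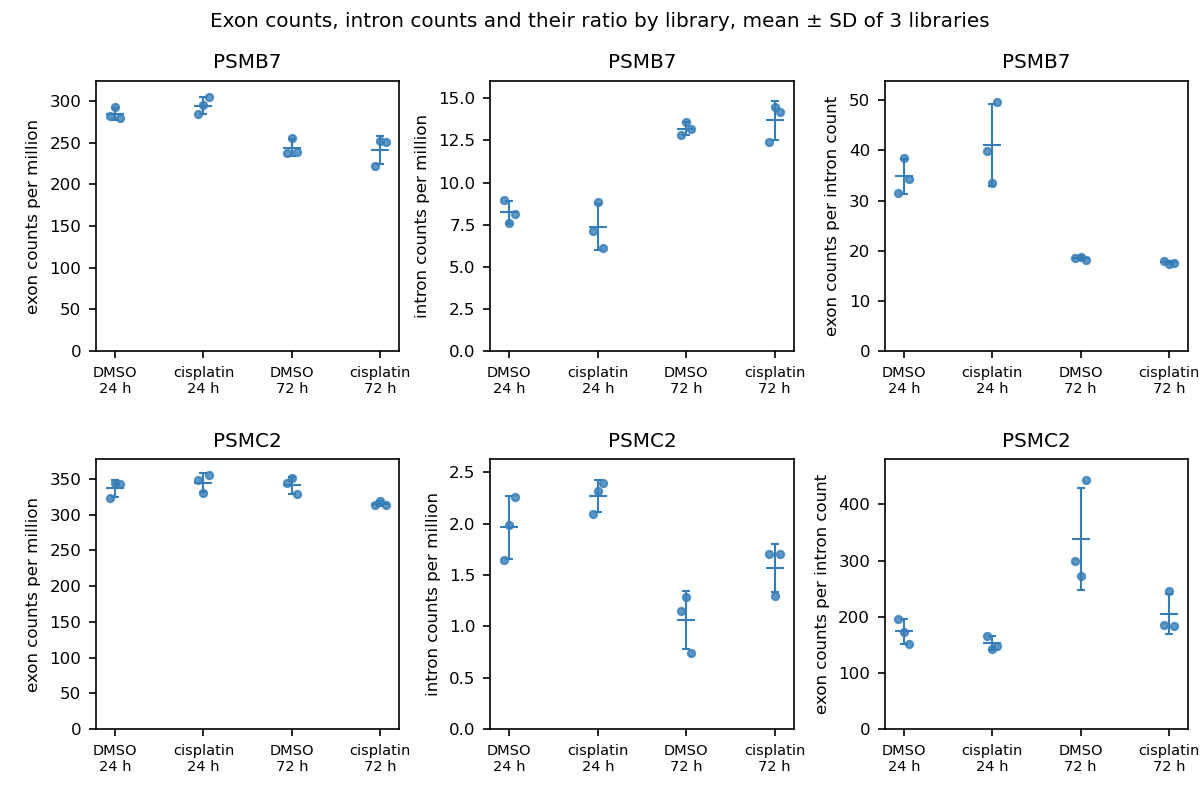
Exon CPM, intron CPM and exon counts per intron count (vertical axes, from 0) of PSMB7 (top) and PSMC2 (bottom) in the 4 groups. Points are libraries, dashes the mean and bars the SD of 3. For PSMB7 all 72 h libraries have more intron counts and a lower ratio than all 24 h libraries, and for PSMC2 the DMSO 72 h libraries have fewer intron counts and a higher ratio than the DMSO 24 h libraries.

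Cisplatin against DMSO gave no proteasome gene with changed intron counts by edgeR, 0 of 44 at 24 h and 0 of 44 at 72 h, against 0.0208% and 0.0416% of all genes. At an unadjusted p under 0.05 there were 1 and 5 of the 44, against 5.0% and 6.47% of all genes, and DESeq2 called 0 at both times. The nearest at 24 h were PSMD11 at 0.52 and PSMB7 at -0.22, and at 72 h PSMB3 at 0.77 and PSMB5 at 0.62 (log2, adjusted p = 0.94, 0.94, 0.61 and 0.69). The edgeR contrast of the cisplatin effect between times called 0 of 44 for introns against 0.0416% of all genes, with 2 of the 44 at an unadjusted p under 0.05 against 5.71% of all genes. For the ratio, edgeR called 0 of 42 at 24 h (0.0% of all genes), 0 at 72 h (0.0213%) and 0 for the difference between times (0.0%), with 2, 6 and 3 of the 42 at an unadjusted p under 0.05 against 6.33%, 6.24% and 4.55% of all genes. The lowest p values of the ratio were those of PSMD11 and PSMD7 at 24 h, at -0.62 and -0.27, and of PSMB3 and PSMC2 at 72 h, at -0.89 and -0.70 (adjusted p from 0.49 to 0.78).

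The logistic regression that the study used on exon and intron counts, which treats each fragment as independent, called more genes. At 24 h of cisplatin, 8 of 42 had a lower ratio and 0 a higher one, against 10.7% and 0.765% of all genes. At 72 h, 9 were lower and 1 higher, against 9.7% and 1.73%. PSMD11 at 24 h (-0.65 ± 0.15) and PSMB3 at 72 h (-0.92 ± 0.19) had the largest falls, and PSME4 at 72 h rose by 0.44 ± 0.14. Over time in DMSO it called 11 higher and 8 lower, against 22.5% and 11.1%, and in cisplatin 8 higher and 9 lower, against 29.0% and 11.6%. Of these counts, 2 moved by over 1.5 times with 1 library: at 24 h of cisplatin 0 were called without cisplatin 24 h replicate 2 and 2 without DMSO 24 h replicate 2, and over time in DMSO 12 without DMSO 24 h replicate 3 or DMSO 72 h replicate 1. With a dispersion estimated for each gene from the replicates, it called 0 of 42 for cisplatin at both times (0.0% of all genes at each) and over time in cisplatin (0.988% of all genes), and 1, PSMB7, over time in DMSO (0.657% of all genes).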

How the data were processed

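RNA was measured in 12 libraries of the TYK-nu line, 3 for each of DMSO and 15 μM cisplatin at 24 and 72 h. The authors trimmed paired reads with Trim Galore 0.6.0, checked them with FastQC 0.11.8, aligned them to GRCh38 with HISAT2 2.1.0 and counted fragments per gene with HTSeq over Ensembl release 98 exons and introns. The deposited values are raw counts, with 1 exon and 1 intron column per library. The strand setting of the counting is not given in the sources used here, so overlapping genes are uncertain, and 17 of the genes have annotated pseudogenes. Library totals were 18526830 to 68753262 counts, and floors cover counting error only.

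Exon and intron counts were tested with edgeR 4.0.16 (R 4.3.3; quasi-likelihood, TMM factors, low counts removed), fitted on 12 libraries and all genes, with Benjamini-Hochberg adjustment over all genes tested and a threshold of 0.05. The exon/intron ratio was tested with edgeR, for genes reaching 10 counts of each kind in 3 libraries, and with the study's binomial logistic regression per gene. DESeq2 1.42.0, other size factors, other filters, a replicate block and leaving out each library were alternatives. Lengths and overlaps came from GENCODE release 44, and promoters from RefSeq (GRCh38.p14). Scripts used Python 3.11.15, pandas 2.3.3 and matplotlib 3.10.9, and were tested on simulated data. Replicates differed by more than sampling noise (chi-square per degree of freedom 3.84 to 21.7).

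The members, lists and motifs were chosen with earlier results of these data known. Named genes were up to 4 of the largest rises and falls past the threshold in each comparison, otherwise the 2 with the lowest p, beside the catalytic, immunoproteasome, activator, inhibitor and PSMG genes. Genes beyond that rule were named to account for every member. Some results of the lists are not reported here.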

Additional observations from a re-analysis of the deposited data

How the results depend on the processing

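No result turned direction under the alternatives run. With a dispersion per gene in the logistic regression, the proteasome genes called for the exon/intron ratio were 0 with cisplatin at 24 h, 0 at 72 h, 1 over time in DMSO and 0 over time in cisplatin. Leaving out 1 library gave 0 to 12, 7 to 11, 12 to 19 and 13 to 22 in the same order, and by edgeR 3 to 5 over time in DMSO and 2 to 5 in cisplatin. For exon counts over time it gave 30 to 35 genes in DMSO and 34 to 37 in cisplatin, and for intron counts 10 to 15 and 10 to 13. For cisplatin against DMSO by edgeR it gave 0 in exons, introns and the ratio at both times. DESeq2 called 46 genes higher and 45 lower among all genes for cisplatin at 72 h, where edgeR called 0 and 3, and 0 proteasome genes. The replicate numbers did not pair the libraries: deviations of same-numbered libraries correlated between -0.108 and 0.102, although over time in cisplatin each library correlated best with its own number, a hint from the data and not the design. With the replicate block, 34 and 36 genes changed in exons over time, 13 and 13 in introns, 4 and 2 in the ratio by edgeR, and 8, 11, 19 and 17 by logistic regression. The block ended the exon call of PSMG2 in cisplatin and the ratio call of PSMA4 in DMSO (adjusted p = 0.059 for each). The cause of these shifts was not tested. Intron counts of 3 to 6 a library limit PSMB9 at 24 h, and low intron counts limit the ratios of most of these genes.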

Other observations

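The 2 genes that match the symbol pattern without encoding a proteasome component differed from each other. PSMC3IP, a partner of the recombinase DMC1 in meiotic recombination, fell between 24 and 72 h by 1.16 ± 0.09 on the log2 scale of exon counts in DMSO and by 0.98 ± 0.09 in cisplatin (SE, edgeR adjusted p = 5.7e-11 and 8.7e-10). Its intron counts fell by 1.60 ± 0.17 and by 1.54 ± 0.15, and its exon/intron ratio rose in cisplatin by 0.63 ± 0.18 (adjusted p = 0.023), a call lost without cisplatin 24 h replicate 2 (0.083) or cisplatin 72 h replicate 1 (0.16). PSME3IP1, which binds PSME3, was at 0.11 ± 0.05 and 0.04 ± 0.05 and passed in neither arm.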
